A study of Mus musculus with 864 samples.

Results

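The neurofilament and peripherin genes Nefh, Nefm, Nefl, Prph and Ina were examined across single neurons of the mouse lumbar dorsal root ganglion, the cluster of sensory neuron bodies beside the spinal cord. These 5 genes were taken by symbol from a table of 23281 genes, and each occupied a single row of it. All mice were C57/Bl6, 6 to 8 weeks old, with no stated genetic change or treatment, and 6 lumbar ganglia were dissociated for a preparation of cells. Single cells were drawn into a glass capillary and placed in wells, 799 wells in all, and 694 of these held at least 1000 genes above 0 and were kept. The wells came from 3 picking sessions: A and B were picked at room temperature and C on a cooled stage. Sessions A and C held male and female cells and session B male cells only. Each session and sex is called a preparation below, so there were 5. The labels name no animal, so preparations, which may share animals, were the repeats. For classes, p-values measure how far class differences varied from preparation to preparation. For sessions, they measure the spread between preparations. Values are reads per 1000000 reads of a well (RPM). The median depth ranged from 15518 reads per cell in the male preparation of session A to 2573230 in the female preparation of session C, so depth, session and picking temperature cannot be told apart.

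Neurofilaments are the intermediate filaments of axons and are built from a light (Nefl), a medium (Nefm) and a heavy (Nefh) subunit, joined by alpha-internexin (Ina) or peripherin (Prph). The long tails of the medium and heavy subunits space the filaments in thick, myelinated axons. In sensory ganglia the heavy subunit is the usual marker of large myelinated neurons, and peripherin that of small neurons with thin, mostly unmyelinated axons.

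The reads start at the 5′ end of each transcript, where the well's barcode was added, so they come from the stretch after a gene's start. Promoter windows lie mostly before the start, so those shown here are background, and most of their bases were not read. RefSeq promoter windows (GRCm38.p6, 250 bases before to 50 after the start) were matched for 2 of the 5 genes and are shown for those: Prph, which was found in nearly every neuron, and Ina, which was found in few. Capitals mark TATAAA and GGGCGG, on either strand. The Prph window lies at chr15:99054924-99055223, plus strand, and the Ina window at chr19:47014431-47014730, plus strand.
Prph: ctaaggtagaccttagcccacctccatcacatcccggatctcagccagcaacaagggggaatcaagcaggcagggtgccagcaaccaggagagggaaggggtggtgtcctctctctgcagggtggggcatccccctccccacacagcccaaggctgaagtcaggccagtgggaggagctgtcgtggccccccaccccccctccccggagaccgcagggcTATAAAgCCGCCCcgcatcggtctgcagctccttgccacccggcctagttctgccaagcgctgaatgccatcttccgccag
Ina: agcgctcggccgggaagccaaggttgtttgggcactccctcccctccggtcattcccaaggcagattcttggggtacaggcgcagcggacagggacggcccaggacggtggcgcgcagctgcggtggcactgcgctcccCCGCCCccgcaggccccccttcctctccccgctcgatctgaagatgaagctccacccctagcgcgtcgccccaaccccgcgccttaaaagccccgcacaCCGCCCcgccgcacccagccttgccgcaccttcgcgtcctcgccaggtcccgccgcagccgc
The Prph window held TATAAA once, beginning 31 bases before the start, and the Ina window did not hold these letters. Of 32851 mouse promoter windows, 13.6% held TATAAA on either strand. GGGCGG occurred once in the Prph window and in 2 places in the Ina window, against 35.7% of all windows with at least 1 match, and CCAAT occurred in neither, against 37.4%. The GC content was 64.7% for Prph and 71.7% for Ina, beside a median of 52.7% over all windows. In the order of protein-coding genes in the RefSeq table, Nefl and Nefm are direct neighbours on chromosome 14, whereas the other 3 genes lie on chromosomes of their own.

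The cells were clustered on all genes except the 5 examined here, and the clusters were named from marker genes that also exclude them. The clusters made up 4 classes: NF-like cells, 21.9% of those kept (markers such as Pvalb, Ntrk2, Ntrk3 and Ldhb, of large myelinated neurons), NP-like cells, 19.6% (Mrgprd, P2rx3 and Plxnc1, of non-peptidergic nociceptors), PEP-like cells, 9.80% or 68 cells (Tac1 and Calca, of peptidergic nociceptors) and TH-like cells, 36.3% (Th and Slc17a8, of tyrosine hydroxylase neurons with low-threshold C fibres). No cluster had to raise a whole marker list. NF-like clusters raised 4 to 7 of 10 markers, NP-like clusters 6 to 7 of 13, TH-like clusters 3 to 5 of 5 and the PEP-like cluster all 7. The largest NF-like cluster, led by Fxyd7, raised 4, with none among its 10 leading genes. A cluster of 41 cells led by Sst and Nts and one of 45 cells led by the connective tissue genes Igfbp5 and Col1a2 were left unnamed. In the Igfbp5-led cluster the satellite glia markers summed to 18257 RPM and the fibroblast markers to 13281 RPM, so it was mixed. The 5 general neuron markers summed to between 18588 and 26828 RPM in the 4 classes and to 3410 RPM in the Igfbp5-led cluster, and all 5 had a median above 0 in each of these groups. The classes were not equally spread over preparations: no PEP-like cell came from the female preparation of session A, and 4 TH-like clusters drew most of their cells from a single session each (those led by Wfdc2, Fam19a4 and Anxa1 from C, B and A, and that led by Klhl3 from A). Among the 4 classes, PEP-like cells also carried the highest summed levels of fibroblast, mural and satellite glia markers. Their 5 fibroblast markers summed to 1196 RPM, against 44.6 to 106.3 RPM in the other classes, with each of the 5 at a median of 0. Their 5 mural markers summed to 995 RPM, against 38.2 to 234.3 RPM, and their 7 satellite glia markers to 3773 RPM, against 757 to 1003 RPM. The Cd3d and S100a9 genes of immune cells were among the 10 leading genes of the PEP-like cluster (the neurofilament levels are given with and without those cells below).

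Nefh, the heavy subunit, was the member that set the classes farthest apart. In NF-like cells its mean was 2491 and 1831 RPM in the male and female preparations of session A, 3613 RPM in session B, and 3314 and 3013 RPM in the male and female preparations of session C. In TH-like cells the same preparations gave 130, 102.9, 195.9, 45.9 and 84.7 RPM. The lowest NF-like preparation therefore lay above every preparation of the other classes, the highest of which was PEP-like in session B at 1321 RPM. NP-like cells had 195.8, 117.6, 144.1, 85.5 and 219.1 RPM. PEP-like cells had 231.9 RPM in session A, 1321 RPM in session B, and 432 and 427 RPM in session C. The order of the class means was NF-like (2852 ± 706 RPM, SD, n = 5), PEP-like (603 ± 487, n = 4), NP-like (152.4 ± 54.9, n = 5) and TH-like (111.9 ± 56.04, n = 5), and the last pair overlapped.

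The differences between classes were tested with limma on log2(mean RPM + 5), with preparation as a block and Benjamini-Hochberg adjustment over 9903 genes. All 4 members other than Ina passed in each of the 3 comparisons that involve NF-like cells, where 15.9% (against NP-like), 16.1% (against PEP-like) and 11.3% (against TH-like) of all genes tested were called. The other genes had class labels made from part of the genes, so their cells, PEP-like ones above all, were not all those of the members. Nefh was higher in NF-like than in TH-like cells by 4.71 ± 0.31 (log2, SE; limma adjusted p = 5.87e-11), or 26.2-fold. Against NP-like cells the difference was 4.22 ± 0.31 (adjusted p = 4.28e-10), and against PEP-like cells 2.57 ± 0.33 (adjusted p = 1.41e-05). With edgeR on summed reads, the calls against PEP-like cells were lost for Nefh (1.95, adjusted p = 0.107), Nefm (1.51, adjusted p = 0.100) and Nefl (1.17, adjusted p = 0.145). The edgeR fits left out the PEP-like cells of the female preparation of session C, so their PEP-like values rest on fewer preparations than those of limma. Nefh was also higher in PEP-like than in TH-like cells, by 2.15 ± 0.33 (adjusted p = 0.000102), and in PEP-like than in NP-like cells, with an NP-like minus PEP-like difference of -1.65 ± 0.33 (adjusted p = 0.00146). These PEP-like differences were larger with edgeR, at 3.497 and -2.78, and the second was -0.86 with means of log2(RPM + 20) over cells. Between NP-like and TH-like cells its difference, 0.50 ± 0.31, did not pass (adjusted p = 0.445). The median difference over all genes in the NF-like minus PEP-like comparison was 0.33, a shift to which values of that comparison are relative. In the other 2 NF-like comparisons it was 0.04 and -0.03.

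Nefm, the medium subunit, was high in NF-like cells too, but the other classes were not alike for it. NF-like preparations ran from 2864 to 6280 RPM, with the highest values in session C. NP-like cells had 587 to 960 RPM, and TH-like cells had 207.9 to 430 RPM, so these classes did not overlap. Nefm was higher in NF-like than in TH-like cells by 3.91 ± 0.23 (adjusted p = 7.01e-12), and than in NP-like cells by 2.65 ± 0.23 (adjusted p = 5.75e-09). It was higher in NP-like than in TH-like cells by 1.27 ± 0.23 (adjusted p = 0.000378), a comparison in which 8.00% of all genes were called. With edgeR this call was lost (1.31, adjusted p = 0.193), as was that of Nefl described next (0.91, adjusted p = 0.339). In PEP-like cells it had 473 RPM in session A, 1770 RPM in session B, and 755 and 722 RPM in session C.

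Nefl, the light subunit on which the others assemble, was present in every class at a high level. NF-like preparations had 4631 and 4816 RPM in session A, 7442 RPM in session B, and 4524 and 3254 RPM in session C. NP-like cells had 1338 to 1820 RPM, PEP-like cells 628 to 1668 RPM and TH-like cells 499 to 1176 RPM. Even the lowest NF-like preparation stood above the highest of the other classes. The NF-like excess was 2.52 ± 0.13 over TH-like (adjusted p = 5.71e-13), 2.31 ± 0.14 over PEP-like (adjusted p = 3.89e-11) and 1.64 ± 0.13 over NP-like cells (adjusted p = 7.33e-10). NP-like cells had more Nefl than TH-like cells, by 0.88 ± 0.13 (adjusted p = 2.38e-05), and more than PEP-like cells, by 0.67 ± 0.14 (adjusted p = 0.00156), where 13.8% of all genes were called. This last difference took the opposite sign with edgeR on summed reads, -0.76 (adjusted p = 0.347). It was 0.39 (adjusted p = 0.144) with coarser clustering and 0.61 (adjusted p = 0.0527) in sessions B and C only. Across the 3 subunits the NF-like to TH-like difference thus ran from 4.71 for Nefh through 3.91 for Nefm to 2.52 for Nefl.

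**Figure D1:**
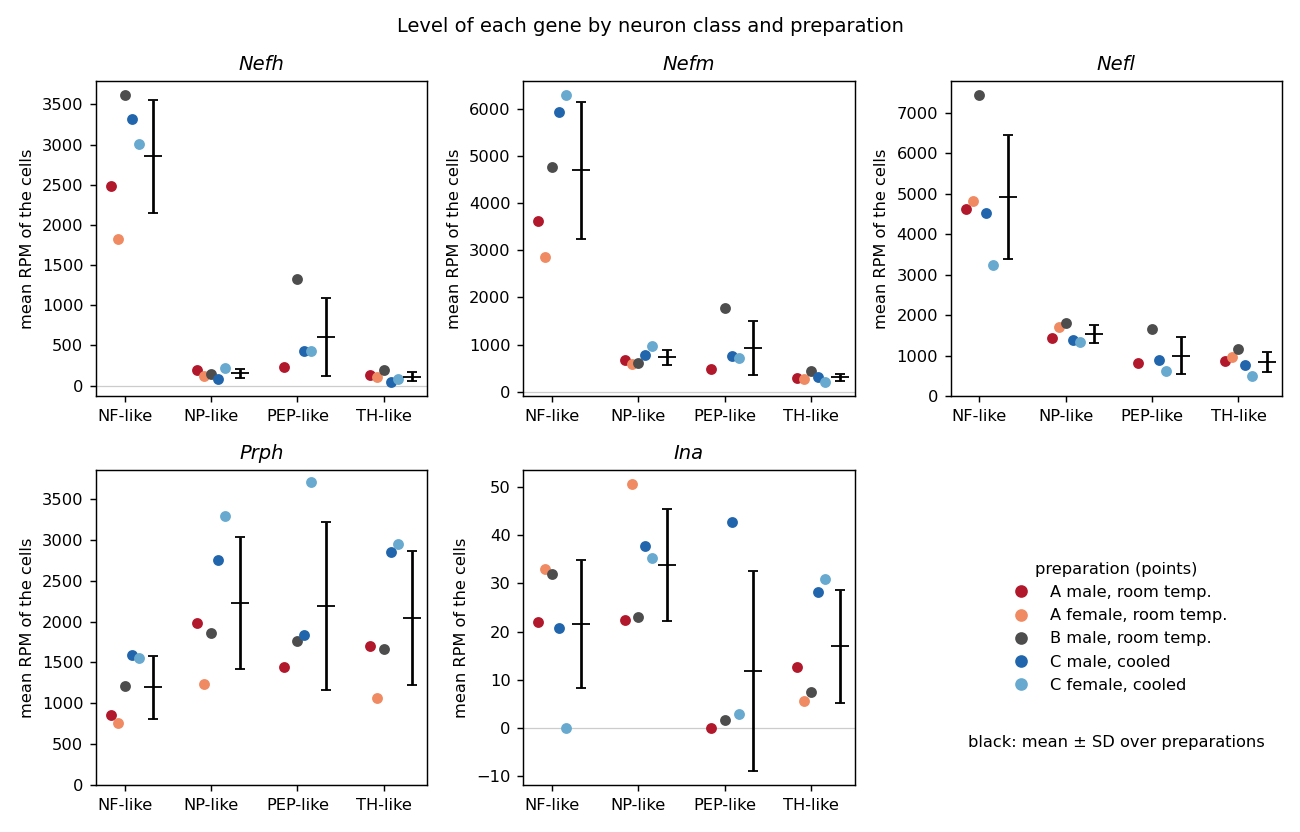
Mean RPM of the cells (y axis, linear, one scale per gene) for Nefh, Nefm, Nefl, Prph and Ina in the 4 neuron classes. Points are preparations with at least 3 cells, and black marks are the mean ± SD over preparations; for Nefh, NF-like points lie at 1831 RPM or above and no other point exceeds 1321 RPM.

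Prph, peripherin, went the other way and by far less. NF-like cells had 860 and 759 RPM in session A, 1212 RPM in session B, and 1586 and 1549 RPM in session C. NP-like cells had 1981 and 1238 RPM, 1856 RPM, and 2751 and 3297 RPM in the same order. TH-like cells had 1706 and 1065 RPM, 1662 RPM, and 2856 and 2947 RPM. Within each preparation NF-like cells had the lowest mean of the classes, although the ranges of the classes overlapped across sessions. Prph was lower in NF-like cells in all 3 comparisons. Its NF-like minus NP-like difference was -0.88 ± 0.13 (adjusted p = 2.21e-05), that to TH-like cells -0.74 ± 0.13 (adjusted p = 0.000328), and that to PEP-like cells -0.65 ± 0.14 (adjusted p = 0.00311). None of the 3 comparisons among the remaining classes passed for Prph, with differences of 0.23 or less in size. Without the preparation block the 3 NF-like differences had adjusted p of 0.0666 (NP-like), 0.181 (TH-like) and 0.117 (PEP-like). With edgeR on summed reads the first 2 had 0.187 and 0.440, whereas the last was -1.81 (adjusted p = 0.0110). The last also lost its call without the female preparation of session C (adjusted p = 0.0520) and when a cell had to get the same class from both gene sets used for clustering (-0.41, adjusted p = 0.0833). In that setting Prph was higher in NP-like than in PEP-like cells (0.50, adjusted p = 0.0379).

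Ina, alpha-internexin, was sparse. Its class means over preparations were 33.8 ± 11.7 RPM in NP-like, 21.6 ± 13.2 in NF-like, 16.96 ± 11.8 in TH-like (n = 5 each) and 11.8 ± 20.6 in PEP-like cells (n = 4), and all 4 ranges overlapped. No class pair passed the test. With limma on means of log2(RPM + 20) over cells, NF-like minus NP-like did pass, at -0.35 (adjusted p = 0.0336). The largest difference, NP-like above PEP-like by 1.78 ± 0.62, had an adjusted p of 0.0574, and 3 alternative settings took it past the threshold (adjusted p from 0.0112 to 0.0465). In this comparison the PEP-like value leaned on the male preparation of session C, which had 42.7 RPM while the other 3 had 0 to 2.87 RPM. Without that preparation the difference was 2.41 (adjusted p = 0.0306).

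**Figure D2:**
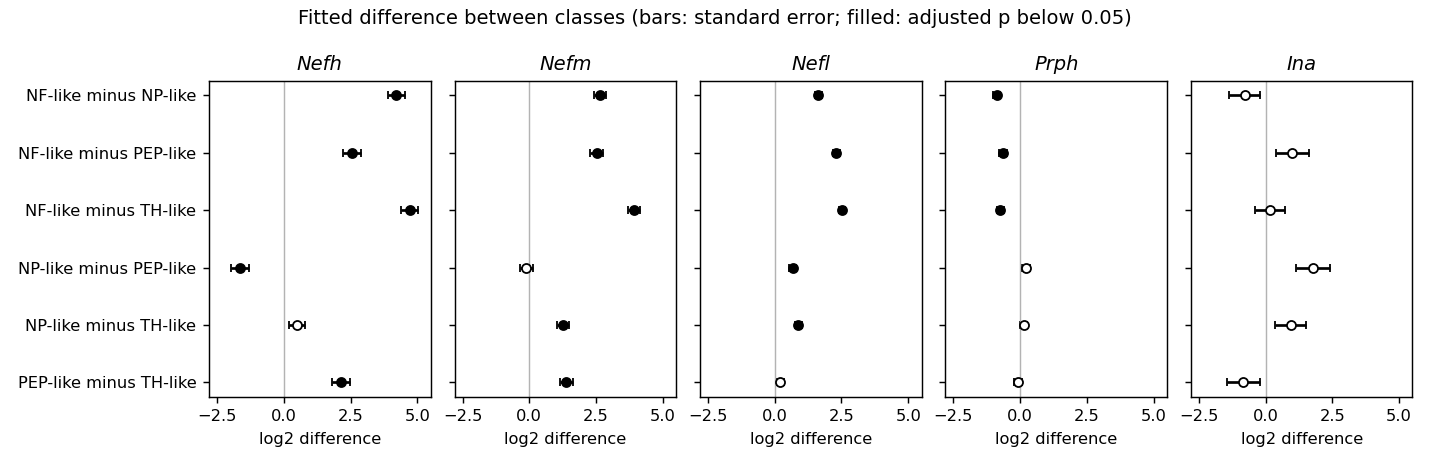
Fitted log2 difference in mean RPM + 5 (x axis) for each gene and each of the 6 class pairs (y axis), with standard errors as bars. Filled points passed an adjusted p of 0.05; the NF-like differences are positive for the 3 neurofilament subunits and between -0.88 and -0.65 for Prph, and no Ina point is filled.

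The PEP-like values need to be read by sub-cluster. When the 68 PEP-like cells were clustered again, after their values had been seen, 43 cells led by Zfp943, Gpx3 and Kit separated from 25 cells led by Cd3d, S100a9, Tagln and Acta2. The 25 cells had mean levels of 4863 RPM of Cd3d and 738 RPM of Pvalb, a gene of proprioceptive neurons, but medians of 0 and 105.03 RPM. Their Calca had a mean of 969 RPM and a median of 259 RPM, beside 7272 and 7430 RPM in the 43. Nefh was 3018 RPM in the 11 such cells of session B, and 387 RPM in the 20 others of that session. In session A the 2 values were 681 and 119.7 RPM (3 and 12 cells), but in the male preparation of session C they were 354 and 520 RPM (9 and 8 cells), and in the female preparation of session C 156.7 and 608 RPM (2 and 3 cells), so the direction was divided over preparations. Without the 25 cells, Nefm was 373, 532, 412 and 344 RPM in the 4 preparations, or 415 ± 82.7 RPM.

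Leaving those cells out changed the calls for Nefm. PEP-like minus TH-like went from 1.38 ± 0.24 (adjusted p = 0.000425, in a comparison with 15.4% of all genes called) to 0.39 (adjusted p = 0.204). NP-like minus PEP-like went from -0.12 ± 0.24 (adjusted p = 0.794) to 0.88 (adjusted p = 0.00688), with NP-like higher. For Nefh the PEP-like excess over TH-like cells was 1.67 without them, and NP-like minus PEP-like was -1.17 (adjusted p = 0.0416). What these 25 wells hold was not tested. The number of cells per well was set by eye during picking.

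**Figure D3:**
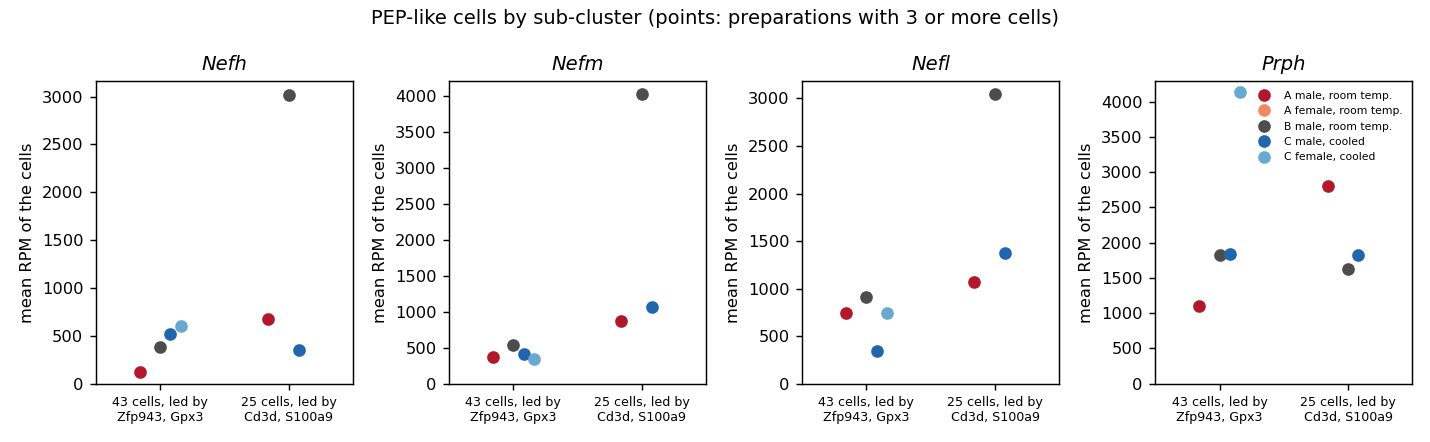
Mean RPM (y axis, from 0) of 4 genes in the 2 sub-clusters of PEP-like cells, where a point is a preparation with at least 3 cells. In the 25-cell sub-cluster the session B point stands far above the others for Nefh (3018 RPM), Nefm and Nefl, whereas the 43-cell sub-cluster stays at or below 608 RPM of Nefh.

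The NF-like class held 4 clusters. They were compared after their values were seen, so the values are given with no test. The 46 cells led by Pvalb and Spp1, genes of proprioceptors, had 4053 ± 1668 RPM of Nefh (n = 4 preparations), and the 51 cells led by Fxyd7 and Pcp4l1 had 3245 ± 1150 (n = 5). The 35 cells led by Sgk1 and Thy1 had 2938 ± 1442 (n = 3), and the 20 cells led by LOC433944 had 920 ± 163.2 (n = 4). The last cluster lay below the remaining NF-like cells of its own preparation in 4 of 4 preparations, with mean differences of -1.73 ± 0.40 for Nefh, -1.71 ± 0.26 for Nefm and -1.13 ± 0.15 for Nefl (log2, SD). Its lowest preparation, 740 RPM of Nefh, was still above all NP-like and TH-like preparations, the highest of which had 219.1 RPM.

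Prph separated the NF-like clusters differently from the neurofilament subunits. The Pvalb-led cells had 597 ± 198.7 RPM of Prph and lay below the other NF-like cells in 4 of 4 preparations, with a mean difference of -1.12 ± 0.41 (log2, SD). The Sgk1-led cells had 1959 ± 793 RPM, with 1061 RPM in the male preparation of session A, which held 22 of the 35 cells, beside 2566 and 2250 RPM in the 2 other preparations. The Fxyd7-led cells had 1294 ± 435 RPM. The LOC433944-led cluster, lowest in neurofilaments, had 1230 ± 303 RPM of Prph. It lay above the other NF-like cells in 3 of 4 preparations.

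Within the NF-like class Ina was found mostly, but not only, in the Pvalb-led cells. It was above 0 in 27 of 46 Pvalb-led cells (58.7%) and in 8 other NF-like cells (7.55% of them). Its mean in Pvalb-led cells was 66.3, 89.4, 110.8 and 34.3 RPM in 4 preparations, beside 0.476, 0, 2.38 and 16.5 RPM in the other NF-like cells of the same preparations. In the last of these, the male preparation of session C, the 6 Sgk1-led cells had 44.1 RPM, above the Pvalb-led value. After every cell was thinned to 3000 reads, 8 of 44 Pvalb-led cells (18.2%, 95% Wilson interval 9.51 to 31.96) and 1 of the others (0.962%, 0.170 to 5.25) had an Ina read. The Pvalb-led cells were the shallower ones, with a median of 51312 reads beside 88155. All 20 cells of the LOC433944-led cluster (median 319293 reads) and all 30 of the TH-like cluster led by Klhl3 (median 12994 reads) were at 0.

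**Figure D4:**
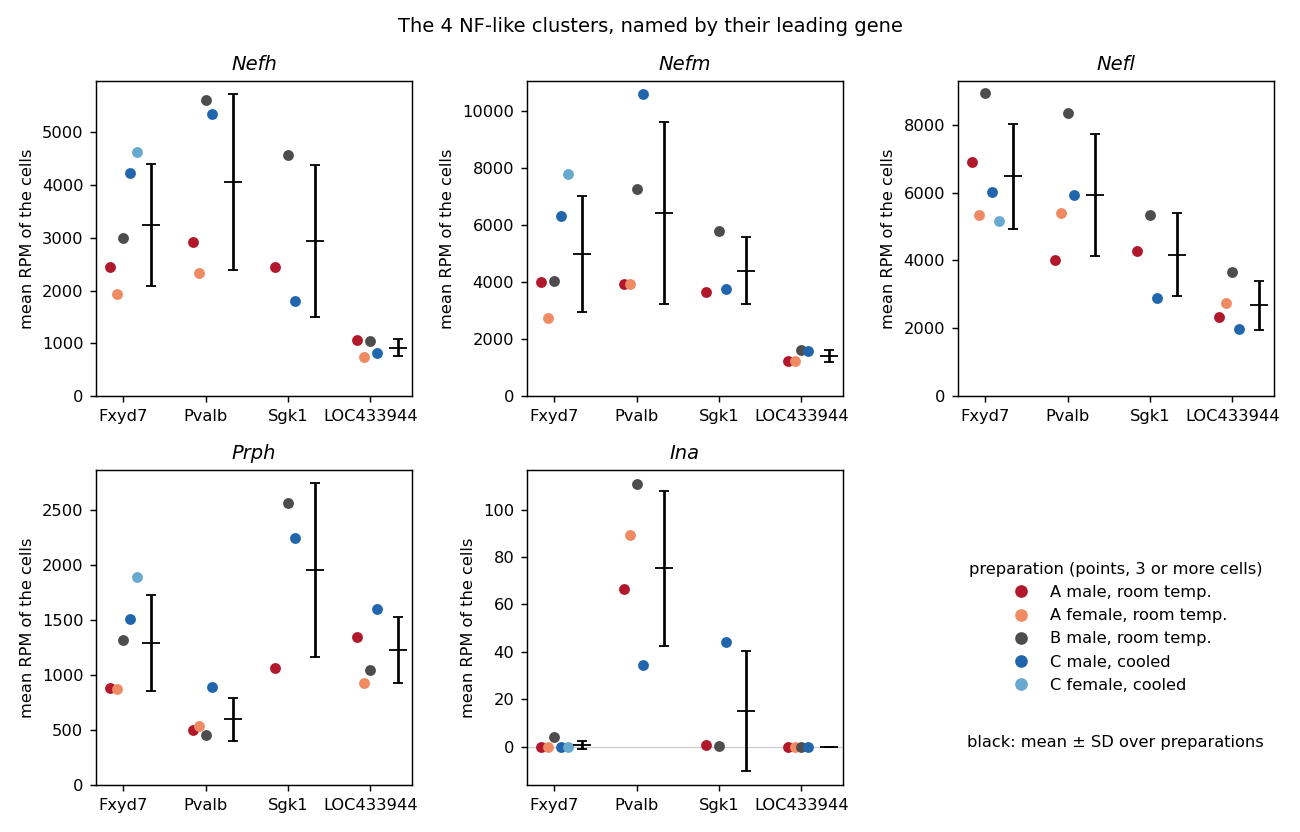
Mean RPM (y axis, one linear scale per gene) in the 4 NF-like clusters, each named on the x axis by its leading gene. Points are preparations with at least 3 cells and black marks the mean ± SD; the LOC433944 cluster is lowest for the 3 neurofilament subunits, and the Pvalb cluster is lowest for Prph and highest for Ina.

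Clusters of the other classes also varied. In the 54 NP-like cells led by Prkca and Mrgprd, a receptor of non-peptidergic nociceptors, Nefm was 964 ± 279 RPM (n = 5), beside 511 ± 74.1 RPM (n = 4) in the 49 cells led by Tmem233. Nefh was 213.6 ± 79.6 RPM in the first and 97.6 ± 34.4 RPM in the second. The 41 unnamed cells led by Sst and Nts had 968 ± 323 RPM of Nefm, 179.9 ± 95.9 RPM of Nefh and 2363 ± 1190 RPM of Prph (n = 4). Among TH-like clusters, which came from different preparations, Nefh was 34.9 RPM in that led by Wfdc2 (n = 2) and 205.2 RPM in that led by Sorcs1 (n = 4). In the 2 preparations they shared, the order was not the same: 52.98 and 23.97 RPM in the male and 16.7 and 327 RPM in the female preparation of session C. In the Igfbp5-led cluster Nefm was 3087 RPM in 1 preparation and 38.2 and 87.3 RPM in the others.

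The share of cells in which a member was seen depended on depth. With all reads, Nefh was above 0 in all NF-like, 85.3% of PEP-like, 74.3% of NP-like and 69.8% of TH-like cells. Thinned to 3000 reads, which left out 4, 2, 1 and 2 cells, the shares were 97.97% (95% Wilson interval 94.2 to 99.3), 43.9% (32.6 to 55.9), 26.7% (19.9 to 34.7) and 18.8% (14.4 to 24.1). In the Igfbp5-led cluster the thinned share was 11.1% (4.84 to 23.5), an interval that overlaps those of NP-like and TH-like cells. That cluster held neuron markers too, and its Nefh mean was 672 RPM in session B, so its share is no floor. Intervals cover counting error only. Prph was seen in 97.6% of thinned TH-like, 97.04% of NP-like, 89.4% of PEP-like and 85.1% of NF-like cells, beside 24.4% (14.2 to 38.7) in the Igfbp5-led cluster. Median depths were 67198 reads in NF-like, 169110 in NP-like, 72779 in PEP-like, 236704 in TH-like and 148879 in Igfbp5-led cells.

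Prph and Nefh were found together in most NF-like cells. Of thinned NF-like cells, 83.1% had both, 14.9% had Nefh alone and 2.03% had Prph alone. Of 250 thinned TH-like cells, 47 had both, 78.8% had Prph alone and none had Nefh alone. All 3 neurofilament subunits were seen at once in 96.6% of NF-like, 36.4% of PEP-like, 24.4% of NP-like and 12.4% of TH-like cells at this depth. At least 1 of them was seen in all but 0, 8, 2 and 14 of these cells, in the same order.

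Low Nefh values had to be set against control wells, which received no cell. Of 24 control wells with whole reads, 13 held Nefh, 17 held Prph and none held Ina, and the highest counts were 22 reads of Nefh and 29 of Prph. In session A the mean of 1.5 Nefh reads per control well corresponded to 90.8 RPM at the median depth of a neuron there (16528 reads), close to the TH-like mean of 125.9 RPM and below the NP-like mean of 182.9 RPM. For other members the same measure in session A was 400.8 RPM of Prph, beside an NF-like mean of 836 RPM, 226.9 RPM of Nefm, beside a TH-like mean of 283 RPM, and 136.1 RPM of Nefl, beside class means of 810 RPM or more. In session C the Nefh measure was 1.00 RPM, because neurons there had a median of 2447480 reads. There the median TH-like cell had 1.496 RPM of Nefh and the 90th percentile was 148.98 RPM, and 12 TH-like cells (11.1%) reached 100 RPM. In session B, 38 of 59 (64.4%) TH-like cells reached 100 RPM, where the control measure was 28.7 RPM. How much stray RNA added to these cells was not tested.

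Ratios between members were compared within a cell class and preparation, because RPM at a transcript's 5′ end does not put different genes on a common scale. Only the way a ratio differed between classes is therefore described. The log2 Nefh to Prph ratio was 1.28 ± 0.27 in NF-like (SD, n = 5), -2.05 ± 1.17 in PEP-like (n = 4), -3.82 ± 0.66 in NP-like and -4.18 ± 1.19 in TH-like preparations (n = 5 each). The lowest NF-like preparation, 0.96, was above the highest of any other class, -0.41 in PEP-like cells of session B. NF-like exceeded NP-like by 5.10 ± 0.54 and TH-like by 5.45 ± 0.98 (log2, SD) in 5 of 5 preparations, and PEP-like by 3.33 ± 1.01 in 4 of 4. The exact two-sided sign-flip p was 0.0625 for the first 2 and 0.125 for the last, the smallest that 5 and 4 preparations can give, and each was 0.15 after adjustment over 18 ratio comparisons. No ratio could therefore pass 0.05 by this test.

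The balance among the neurofilament subunits also moved with class. The log2 Nefh to Nefl ratio was 2.58 ± 0.56 higher in NF-like than in NP-like cells and 2.19 ± 0.79 higher than in TH-like cells, in 5 of 5 preparations (exact p = 0.0625 each). Against PEP-like cells the difference was 0.30 ± 0.70, positive in 3 of 4 preparations (exact p = 0.5). The log2 Nefm to Nefl ratio was 1.01 ± 0.29 higher in NF-like than in NP-like cells and 1.39 ± 0.55 higher than in TH-like cells, again in 5 of 5. PEP-like cells exceeded TH-like cells by 1.21 ± 0.34 in this ratio, in 4 of 4 preparations (exact p = 0.125), and by 0.73 without the 25 cells described above. The Nefm to Nefl ratio of NF-like cells itself ranged from -0.75 to 0.95 over preparations, a range wider than each of these differences between classes. It was -0.75 to -0.35 in sessions A and B, and 0.39 and 0.95 in session C. Within preparations, NF-like cells exceeded NP-like cells by 0.72 to 1.42 and TH-like cells by 0.80 to 2.19.

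In single cells the Nefh to Prph ratio split most, but not all, neurons. On the scale log2 of (RPM + 20), its 10th percentile, median and 90th percentile were -0.54, 1.24 and 3.21 in NF-like cells, and -7.24, -5.18 and -2.28 in TH-like cells. Only 5 of 388 NP-like and TH-like cells lay above the 10th percentile of NF-like cells. Of the 68 PEP-like cells, 15 did, and 11 of these 15 belonged to the 25-cell sub-cluster. NF-like clusters had medians of 2.55 (Pvalb-led), 1.46 (Fxyd7-led), 0.51 (Sgk1-led) and -0.25 (LOC433944-led), so the last lay nearest to the other classes.

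**Figure D5:**
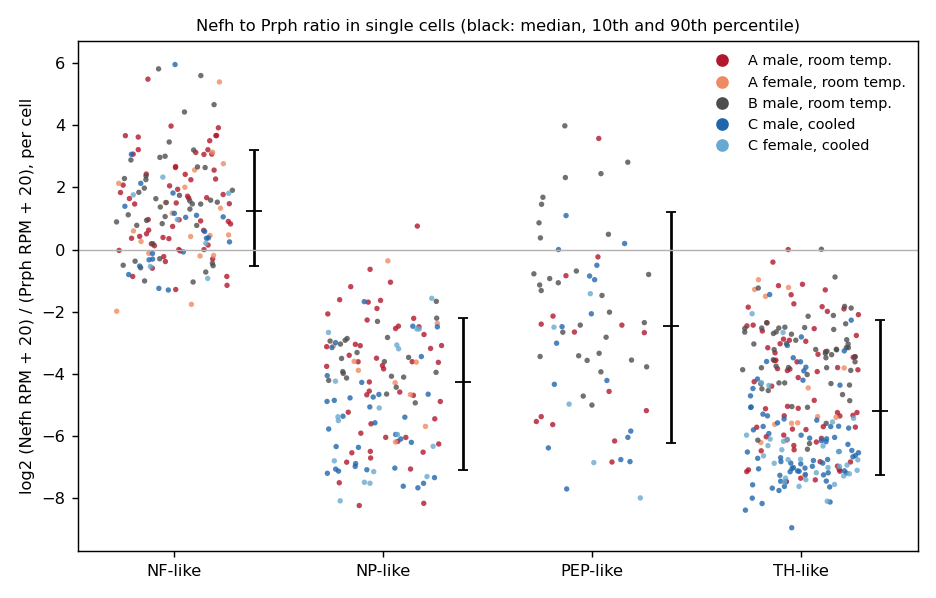
Each point is a cell, with the log2 ratio of Nefh + 20 to Prph + 20 RPM on the y axis and its class on the x axis, coloured by preparation. Black marks give the median with the 10th and 90th percentile; NF-like cells centre at 1.24 and TH-like cells at -5.18, and the lowest TH-like cells are from session C.

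Within NF-like cells the 3 neurofilament subunits varied together and peripherin did not follow them. Across the NF-like cells with at least 3000 reads, Pearson's r on log2(RPM + 20), centred by preparation, was 0.82 for Nefh and Nefm, 0.70 for Nefm and Nefl, and 0.68 for Nefh and Nefl. Within the 4 preparations with at least 15 cells these ranged from 0.65 to 0.92, 0.56 to 0.85 and 0.60 to 0.88. Prph had r of -0.12 with Nefh, -0.15 with Nefm and -0.06 with Nefl. Among the Pvalb-led cells alone (n = 44), Nefh and Nefm still had r = 0.83. The Nefh and Nefm value was 0.52 in PEP-like (n = 66), 0.41 in NP-like and 0.27 in TH-like cells (n = 250). The median TH-like cell had 66.2 RPM of Nefh in session A, where 1 read at median depth is 60.5 RPM. In session C it had 1.496 RPM, where 1 read is 0.409 RPM. In session B it had 130.6 RPM, where 1 read is 4.78 RPM, so Nefh was well above a few reads there. Why r differed between classes was not tested. Cells of a preparation share library and depth, so these correlations describe these cells and carry no p.

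The genes whose pattern over 19 class and preparation means was most like that of a member had also been used to cluster the cells, so their likeness is a description. For Nefh they were Nsg1 (r = 0.97), Smpx (0.96) and Pcp4l1 (0.96). Nefm was closest to Mtap1b (0.97), which encodes a microtubule-associated protein, Myh10 (0.96) and Gyg (0.95). Nefl shared Gyg (0.97) and Mtap1b (0.96) with it and had Gda as well (0.95). Prph was closest to Gnb2 (0.92), Dusp26 (0.92) and Ppef1 (0.90), and Ina to Nufip2 (0.86), Wdr12 (0.85) and Gdpd5 (0.84). Among the members themselves r was 0.95 for Nefh with Nefm and for Nefm with Nefl, and -0.84 for Nefh with Prph.

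Other genes of the cytoskeleton were tested in the same fits, with labels made from part of the genes and so with partly other PEP-like cells than the members. Of 13 other intermediate filament genes, 5 were expressed enough to test, and the single one called was vimentin (Vim), which was lower in NF-like cells in all 3 comparisons, a share of the 5 close to the 11.3% to 16.1% of all genes called in them. Vim was 31.3 RPM in NF-like, 86.4 in NP-like, 118.6 in TH-like and 458 RPM in PEP-like cells, with a difference to TH-like cells of -1.93 ± 0.47 (adjusted p = 0.00698). The medians of the 5 tested were 0.14, -0.10 and -0.11 against NP-like, PEP-like and TH-like cells. Vim is also a gene of glia and connective tissue, whose markers were highest in PEP-like cells.

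Tubulins divided by isotype. Of 11 tested genes (16 were listed, and 11 of their symbols were in the table) of tubulins and microtubule proteins, 5 were higher and 5 lower in NF-like than in NP-like cells, where 9.04% and 6.82% of all genes went each way. Against TH-like cells 3 were higher and 4 lower (6.01% and 5.33% of all genes), and against PEP-like cells 1 was higher and 4 lower (12.1% and 3.95%). Tuba4a, an alpha-tubulin, was 741 RPM in NF-like cells, 299 in PEP-like, 57.7 in TH-like and 33.3 RPM in NP-like cells. Its rise over TH-like cells was 3.84 ± 0.53 (adjusted p = 2.48e-05). That over PEP-like cells, 1.37 ± 0.58, did not pass (adjusted p = 0.109). Tubb2b, a beta-tubulin of growing neurons, was 160 RPM in NF-like and 1003 RPM in TH-like cells, a difference of -2.70 ± 0.20 (adjusted p = 7.05e-10). Tubb3, the neuronal beta-tubulin, was 3459 RPM in NF-like and 1359 RPM in TH-like cells, a difference of 1.35 ± 0.12 (adjusted p = 1.25e-08). It was 2925 RPM in PEP-like cells, and that difference, 0.31 ± 0.13, did not pass (adjusted p = 0.103). The medians of the 11 were -0.26, -0.09 and -0.04 against NP-like, PEP-like and TH-like cells. Map1b was listed too, but these data hold it as Mtap1b, so it is not among the 11. Mtap1b averaged 5632 RPM in NF-like, 1950 in NP-like, 1811 in PEP-like and 1257 RPM in TH-like cells. Tubulin isotypes have near-identical copies, and reads could be split among them.

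Linkers, motors and chaperones of the filaments were also listed. Of 13 linker, transport, chaperone and turnover genes, 2 were higher and 2 lower against NP-like cells, 4 were higher against PEP-like cells and 1 was higher against TH-like cells. These are to be read beside the 9.04% higher and 6.82% lower, 12.1% higher and 6.01% higher of all genes in the same comparisons. The last was Bag3, a co-chaperone, at 253 RPM in NF-like and 127.7 RPM in TH-like cells (0.94 ± 0.29, adjusted p = 0.0375). The medians of the 13 were 0.41, 0.44 and 0.09 against NP-like, PEP-like and TH-like cells in that order, beside all-gene medians of -0.03 to 0.33.

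Picking sessions were compared with limma over the mean of 3 classes (PEP-like left out), with sex as a term. None of the 5 members passed between the cooled and the room temperature sessions, where 0.586% of all genes were called. Prph came nearest, higher in the cooled session by 0.92 ± 0.30 (unadjusted p = 0.0140, adjusted p = 0.181). Of all 9903 genes, 1759 had an unadjusted p below 0.05 in this comparison. Both cooled preparations had more Prph than every room temperature preparation in each of the 4 classes. The classes lay in different clusters in the cooled and the other sessions: 33 of 53 cooled NP-like cells were in a cluster led by Nmb that held no other cell, and 78.7% of cooled TH-like cells were in that led by Wfdc2, which held 1 other cell. In clusters with cells of both kinds, the cooled preparations had 3935 and 5004 RPM of Prph beside 1321 and 2156 RPM (led by Sorcs1), and 3147 and 3911 RPM beside 1803 to 2294 RPM (led by Prkca), but 2132 RPM beside 995 to 2147 RPM in that led by Tmem233. With edgeR on summed reads, which takes the classes of a preparation as separate samples, the Prph difference was 1.12 (adjusted p = 0.000524). That fit called 775 of 9903 genes. With limma and without session B the Prph difference was 1.00 (adjusted p = 0.0237), in a fit that called 701 of 9858 genes. Nefl had -0.45 ± 0.31, Nefm 0.34 ± 0.29 and Nefh -0.28 ± 0.35, and none of these passed.

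The NF-like excess over NP-like and TH-like cells was also compared between sessions. No member and no gene passed with limma (0% of 9903 genes called, with 744 at an unadjusted p below 0.05; edgeR was not run on it). The Nefh excess was larger in the cooled session by 1.01 ± 0.45 (adjusted p = 0.637), and that of Ina was smaller, with a difference of -2.20 ± 0.67 (adjusted p = 0.637). Without the male preparation of session C, a fit that leaves a single cooled preparation, the Ina value was -3.55 (adjusted p = 0.0400), in a fit that called 1011 genes.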

How the data were processed

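Single cells of the mouse lumbar dorsal root ganglion were sequenced by a method that tags the 5′ end of each transcript. Per the submitters' processing notes, the authors used Bowtie and genome build mm9, and they deposited values in RPM (reads per 1000000) per gene and well. In 841 of 860 columns the deposited RPM steps gave whole reads (99.5% of values within 0.1 of a whole number). Another 4 columns of per-well values, from control wells, were not used. Rows of numbered copies were summed.

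Cells with at least 1000 genes above 0 were clustered without the 5 members (log2(RPM + 100) centred by session, 600 variable genes, 15 principal components, 15 neighbours, Leiden resolution 2, leidenalg 0.10.2). Every other gene was tested with labels made from whichever of 2 gene sets did not hold it. With labels from 1 of these sets, 44 cells were PEP-like, and the 2 from the female preparation of session C were too few to use. Genes tested with those labels lacked that PEP-like value, and the edgeR fits lacked it for every gene. No doublet caller was run. Another gene list and 1 class marker are not reported here. Kept cells numbered 214 male and 45 female in session A, 176 in B, and 184 male and 75 female in C. They comprised 252 TH-like, 152 NF-like, 136 NP-like and 68 PEP-like cells, of which 250, 148, 135 and 66 had at least 3000 reads. RPM was averaged per class and preparation (at least 3 cells) and tested with limma 3.58.1 on log2(mean RPM + 5), genes of mean 5 RPM or more, two-sided, threshold 0.05. Preparation, which the labels give as picking session and sex, was the block. Fold changes on this scale understate those of low genes. edgeR 4.0.16 on recovered reads, other pseudocounts, thinning to 3000 reads and preparations left out were alternatives, as was leaving out 25 PEP-like cells, chosen after seeing the data. All members, the 3 genes most like each, and up to 3 called genes per list by size against TH-like cells were named, and other genes named were chosen after their values were seen. The members and lists were chosen with earlier results of these data known. On simulated data for NF-like against TH-like (4979 genes), the limma fit recovered 47.2% of genes changed by 2 and 12.8% of those changed by 1 (log2).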

Additional observations from a re-analysis of the deposited data

Results flagged for a closer look

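Within PEP-like cells the male preparation of session C stood apart for Ina, at 42.7 RPM while the other 3 preparations lay between 0 and 2.87 RPM. It was the 1 of 32 sets of preparation values checked (member levels and ratios by class) in which 1 preparation was that far from the others. How often chance alone gives such a gap among 32 sets was not tested. Of its 17 cells, 8 in the larger sub-cluster averaged 72.3 RPM and 9 in the smaller one 16.4 RPM.

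Wells labelled as holding more than 1 cell, which entered no comparison, also carried the members. Of 31 such wells, 20 had more Nefm reads, 23 more Nefl and 22 more Prph than every control well (24, 23 and 29 reads at most). Median levels were 176.7, 600.3 and 1034 RPM. Their median total was 4190400 reads, against 2956 in control wells. Nefh had a median of 9 reads there, below the highest control well at 22, but 13 of the 31 wells had more than that. Its 90th percentile was 2533 RPM. Ina, with no read in any control well, had reads in 6 of the 31.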

How the results depend on the processing

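Of the 18 called member differences between classes, 8 were called under every alternative run for them, and 307 of their 324 values under alternatives stayed called. All but 1 of the 324 kept their direction. The exception was Nefl, NP-like minus PEP-like, at -0.76 with edgeR. The number of members called fell from 4 to 1 (NF-like minus PEP-like), from 2 to 1 (NP-like minus PEP-like) and from 2 to 0 (NP-like minus TH-like) with edgeR, which sums reads over the cells. For PEP-like cells edgeR also lacked the female preparation of session C. The number called was 1 for NP-like minus PEP-like in sessions B and C only, and 1 for PEP-like minus TH-like without the 25 PEP-like cells. In the picking comparison it was 1 with edgeR. With each preparation left out in turn it ran from 0 to 1 in both session comparisons, from 3 to 4 for NF-like minus PEP-like, from 2 to 3 for NP-like minus PEP-like, and stayed at 4, 4, 2 and 2 for the other pairs. Without the preparation block, 1 member was called in NP-like minus PEP-like, with Nefl at 0.71 (adjusted p = 0.124), and the paired design otherwise changed the calls of Prph only.

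The Nefh to Prph difference of NF-like cells ranged over all alternatives from 4.87 to 5.52 against NP-like, from 3.06 to 4.31 against PEP-like and from 5.10 to 5.99 against TH-like cells. The cause of these changes was not tested. Counts of called genes moved by over 1.5 times: over all alternatives they ranged from 733 to 3008 (NF-like minus NP-like, 1570 in the fit reported), 649 to 4438 (NF-like minus PEP-like, 1593), 467 to 2950 (NF-like minus TH-like, 1123), 544 to 2363 (NP-like minus PEP-like, 1370), 340 to 1141 (NP-like minus TH-like, 792), 635 to 2556 (PEP-like minus TH-like, 1526), 0 to 775 (cooled, 58) and 0 to 1011 (NF-like excess, 0). Depth limits Nefh and Ina most in session A, where 1 read in a neuron of median depth is 60.5 RPM.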
